A study of Mus musculus with 12 samples.

Results

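Cells labelled as haematopoietic stem cells from mouse bone marrow were set against cells with the same label from mouse fetal liver. The comparison covered the 5 bone marrow plates and the 5 fetal liver plates among the 12 plates of the series, chosen by the tissue named in each title. After filtering, 423 bone marrow cells and 454 fetal liver cells remained, together 877 of the 1020 cells kept in the whole series. Each cell had been sorted into a well of a 96-well plate, and its cytoplasmic polyadenylated RNA was counted by unique molecular identifiers (UMIs). The series was designed around mouse lines whose cells carry an editable lineage barcode. The labels give no age, sex, sorting markers or genotype for these plates. Transcripts of Xist, made from the inactive X chromosome in females, were found in plates 1 to 3 of both tissues (119 to 661 UMIs, with 0 to 3 UMIs of Y-linked genes), and those of Y-linked genes in plates 4 and 5 of both tissues (203 to 816 UMIs, with 0 to 1 of Xist).

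Bone marrow plates 1 to 3 carry the origin code LL731, and plates 4 and 5 carry LL901. Fetal liver plates 1 to 3 carry LL653E1, and plates 4 and 5 carry LL653E6. Nothing in the labels ties a code to 1 animal or pooled animals, so plates that share a code were not counted as separate animals. The adjusted p-values of edgeR rest on the spread between 2 codes per tissue, with each gene's own spread drawn toward that of all genes. The permutation tests treat plates that share a code as separate and cover the spread between plates alone. For bone marrow plates 4 and 5 the tissue stands only in the title. In the fetal liver, haematopoietic stem cells are known to divide and expand in number, whereas in adult bone marrow most of them are quiescent. The fetal state has been linked to a set of RNA-binding proteins, chromatin proteins and imprinted growth genes that are switched down after birth. Major histocompatibility complex (MHC) class I molecules show peptides from inside the cell on nearly all cell types, while class II molecules show peptides taken up from outside and are best known from antigen-presenting cells.

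The kept cells held 30786386 UMIs in bone marrow and 28042112 in fetal liver, with a median per cell of 59558 in bone marrow and 54303 in fetal liver. Plate totals ran from 2596681 to 9896449 UMIs in bone marrow and from 3384993 to 8140383 in fetal liver. A detected gene had a median of 2 to 18 UMIs in a cell depending on the plate, so UMIs cannot be taken as independent molecules. The counting intervals of ratios treat each UMI as independent and may therefore be too narrow. No interval given here covers the spread between plates or codes. The ratio of UMIs to detected genes in a cell had plate medians of 13.9 to 45.5 in bone marrow and 7.77 to 21.0 in fetal liver. Cells thinned to the same number of UMIs therefore cannot be taken as matched for molecules. After each cell was thinned to 20000 UMIs, bone marrow cells had 1909 ± 152 detected genes and fetal liver cells 3105 ± 317 (mean of plate medians ± SD, n = 5 plates each), and the plates did not overlap (exact permutation test, two-sided p = 0.00794, the smallest 5 against 5 plates can give). Without thinning the values were 2635 in bone marrow and 4086 in fetal liver. All 10 markers of stem cells, among them Kit, Ly6a, Procr and Hlf, had UMIs in both tissues, with a summed level of 1315 to 1728 CPM (counts scaled to a common library size) in bone marrow plates and 1298 to 1524 CPM in fetal liver plates.

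Of 15472 genes tested, 732 (4.73%) passed an adjusted p under 0.05 in edgeR's quasi-likelihood test, 414 (2.68%) higher and 318 (2.06%) lower in bone marrow. At an unadjusted p under 0.05 there were 2563. The 5 plates of the tissues did not overlap for 1199 genes (7.75%), of which 527 were called. More than a 4-fold difference was reached by 188 of the genes that rose and 136 of those that fell. Without fetal liver plate 4 the counts were 56 higher and 61 lower, and counts without that plate are therefore given beside the gene lists. They were 215 higher and 187 lower without bone marrow plate 5, and 244 higher and 185 lower without fetal liver plate 3. When the number of cells with at least 1 UMI of a gene was tested in place of its UMIs, 801 genes were higher and 292 lower. Of these calls 73.3% were higher, compared with 56.6% for UMIs. That test scaled each number of cells to the detections of all genes, which were fewer per cell in bone marrow. A gene found in equal shares of cells could thus get a positive value, as Abcg2 did (40.7% of cells in each tissue, log2 fold change 0.66 on that scale). Where a summed level differs, fewer cells expressing a gene and less RNA per cell cannot be told apart from the sum, so the share of cells in which the gene was detected is given as well. These shares also carry the smaller number of genes of any kind detected per bone marrow cell. Cdca7, with a log2 fold change of 0.10, was found in 55.6% of bone marrow and 84.6% of fetal liver cells. For Abce1, at -0.03, the shares were 27.0% and 53.7%.

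**Figure D1:**
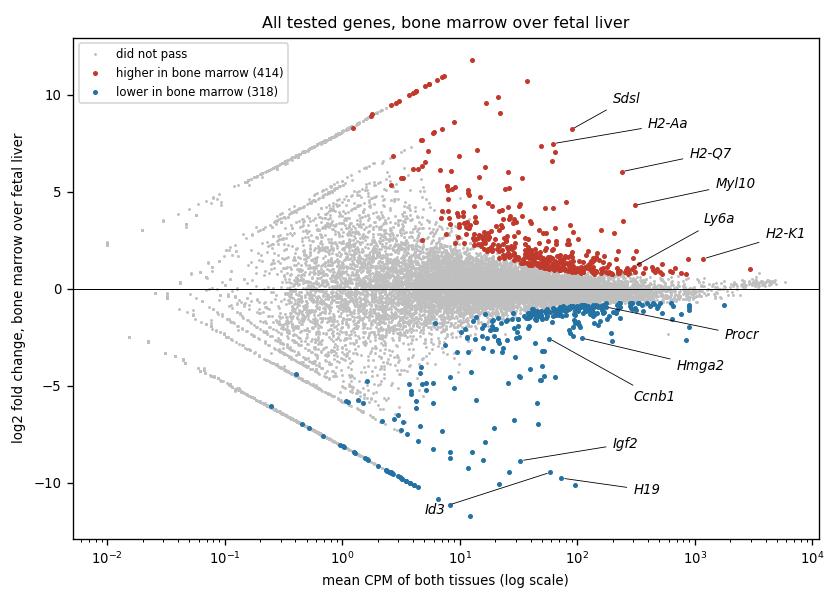
Each point is 1 of the 15472 tested genes, with its mean level over both tissues on the x axis (CPM, log scale) and its log2 fold change, bone marrow over fetal liver, on the y axis. Red points are the 414 genes that rose in bone marrow and blue points the 318 that fell, and labelled genes run from Sdsl, at 8.23, to H19, at -9.77.

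Among called genes that reached 50 CPM in either tissue and whose plates did not overlap, the largest rise was in Sdsl, a relative of serine dehydratase. Its level was 255, 213, 209, 111 and 142 CPM in bone marrow plates 1 to 5, against 0, 0, 3.57, 0 and 0 CPM in fetal liver plates 1 to 5. Every bone marrow plate lay above every fetal liver plate, and the log2 fold change was 8.23 ± 0.60 (adjusted p = 1.12e-08). A UMI of Sdsl was found in 63.1% of bone marrow cells and in 2.20% of fetal liver cells. Myl10, which encodes a regulatory light chain of myosin, was the most abundant of the 15 largest rises. It had 859, 1003, 948, 267 and 228 CPM in bone marrow, against 22.1, 25.8, 36.6, 33.6 and 28.3 CPM in fetal liver. The bone marrow codes differed among themselves, with 929 CPM in plates 1 to 3 and 244 CPM in plates 4 and 5, and both stood above the fetal liver codes (log2 fold change 4.31 ± 0.41, adjusted p = 6.55e-07).

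Several of the other large rises encode membrane or signalling proteins. Muc13, a transmembrane mucin, had 84.8 to 241 CPM in bone marrow plates and 4.51 to 10.2 CPM in fetal liver plates, and 68.1% of bone marrow cells and 11.5% of fetal liver cells had a UMI of it. Galnt6, an enzyme that starts mucin-type O-glycans, was 21.0-fold higher (adjusted p = 1.62e-05). Cngb1, a subunit of cyclic nucleotide-gated channels, was 51.8-fold higher, with 35.1 to 88.4 CPM in bone marrow and 0 to 4.64 CPM in fetal liver. Rgs1, which switches off G protein signalling, and Cpne2, a calcium-dependent phospholipid-binding protein, were 18.3-fold and 18.1-fold higher. Ptger3, a receptor for prostaglandin E2, was 13.4-fold higher with all plates, and its adjusted p was 0.0764 without fetal liver plate 4. Ndrg1, a gene induced by stress and low oxygen, was 19.1-fold higher. Klf9, a transcription factor known to be induced by glucocorticoids, had 32.9, 66.1, 68.1, 85.2 and 21.8 CPM in bone marrow plates, against 0, 0.800, 1.05, 1.25 and 0.603 CPM in fetal liver plates. Its log2 fold change was 6.0 ± 0.58 (adjusted p = 6.93e-07), and the plates did not overlap. Of 18 Klf and Sp factors tested Klf9 alone passed, also without fetal liver plate 4, and the list's median log2 fold change was 0.70, beside 0.00 over all tested genes.

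**Figure D2:**
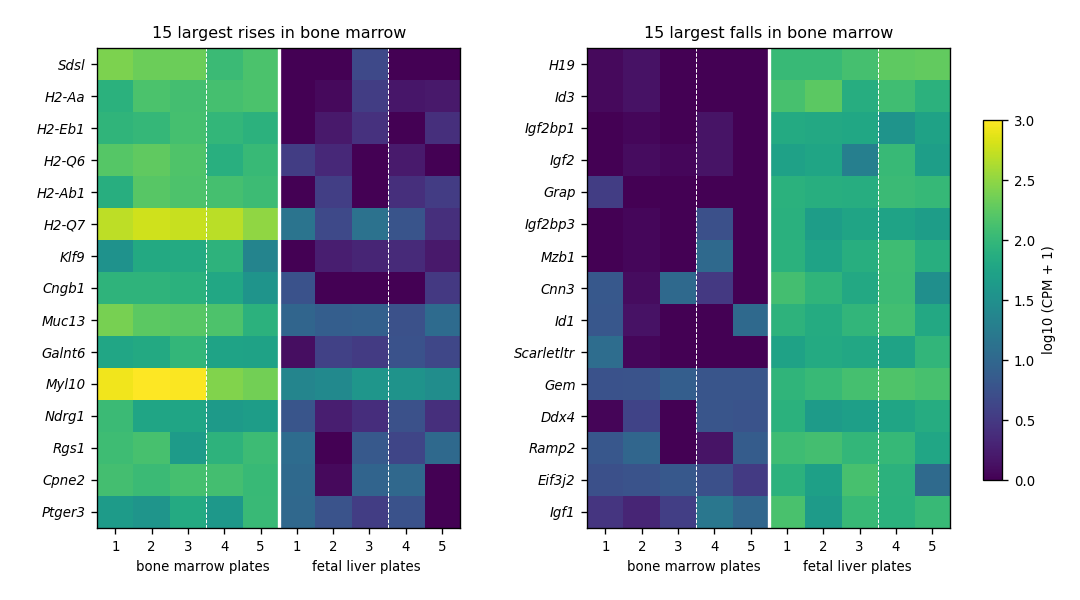
Level of the 15 largest rises (left panel) and 15 largest falls (right panel) in each plate, as colour (log10 of CPM + 1), with the 5 bone marrow plates left of the 5 fetal liver plates and a dashed line between origin codes. Sdsl is at 0 CPM in 4 fetal liver plates, H19 is at 0 CPM in 3 bone marrow plates, and Myl10 is the brightest gene, with up to 1003 CPM.

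The fetal stem cell genes gave the largest falls. Of 23 tested, 14 fell (60.9%, compared with 2.06% of all tested genes), 0 rose and 9 did not pass, with a median log2 fold change of -2.71, and 8 fell without fetal liver plate 4. This list was assembled from genes already known to mark fetal cells, and earlier results on these plates were known, so its direction is no independent evidence. H19, an imprinted noncoding RNA, had 0.198, 0.390, 0, 0 and 0 CPM in bone marrow plates, against 103, 104, 128, 179 and 191 CPM in fetal liver plates. Only 5 H19 UMIs were counted in all bone marrow cells, compared with 3858 in fetal liver cells, and the log2 fold change was -9.77 ± 0.45 (adjusted p = 1.40e-11). Its neighbour Igf2, the insulin-like growth factor expressed from the paternal allele, had 0, 0.260, 0.135, 0.437 and 0 CPM in bone marrow plates, against 51.2, 57.4, 18.5, 104 and 46.4 CPM in fetal liver plates. Both genes were therefore separated in every plate, and Igf2 fell with a log2 fold change of -8.87 ± 0.47 (adjusted p = 1.34e-10). At least 1 UMI of H19 or Igf2 was found in 9 of 423 bone marrow cells (2.13%) and in 387 of 454 fetal liver cells (85.2%).

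The Igf2bp genes encode RNA-binding proteins that bind Igf2 and other transcripts and, with Lin28, are known from fetal blood formation. Igf2bp1 had 2 UMIs in all bone marrow cells and 1489 in fetal liver cells, and the ratio of fetal liver to bone marrow was 826 with an exact 95% counting interval of 228 to 6829. In fetal liver its level was 67.8, 63.0, 60.7, 34.3 and 52.1 CPM. Igf2bp3 had 0, 0.130, 0, 4.37 and 0 CPM in bone marrow plates, against 79.7, 45.6, 55.5, 54.0 and 45.2 CPM in fetal liver plates (log2 fold change -6.78 ± 0.75, adjusted p = 5.60e-06). The bone marrow level of Igf2bp3 came almost wholly from plate 4. Igf2bp2, named as a paralog after its values were seen, was less far apart, with 2.62 to 11.2 CPM in bone marrow and 21.7 to 55.4 CPM in fetal liver, and its adjusted p was 1.59e-04 with all plates and 0.0874 without fetal liver plate 4. A UMI of any of the Igf2bp genes was found in 31 bone marrow cells (7.33%) and 364 fetal liver cells (80.2%).

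Chromatin and helix-loop-helix proteins of the fetal list fell as well. Hmga2, a DNA-bending protein that is a target of the let-7 and Lin28 pathway, had 43.3, 25.8, 23.5, 28.4 and 34.1 CPM in bone marrow plates, against 204, 145, 205, 195 and 166 CPM in fetal liver plates. It did not overlap between tissues and fell by 2.55 on the log2 scale (adjusted p = 2.27e-07). Hmga1, its paralog named after its values were seen, was 6.53-fold lower, with a UMI in 45.2% of bone marrow cells and 94.3% of fetal liver cells. Id3, an inhibitor of DNA-binding helix-loop-helix factors, had 0.198, 0.390, 0, 0 and 0 CPM in bone marrow, against 133, 173, 72.5, 119 and 84.4 CPM in fetal liver (log2 fold change -9.47 ± 0.47, adjusted p = 5.25e-11). Its relative Id1, which is not on the fetal list, had 5.55, 0.390, 0, 0 and 9.74 CPM in bone marrow, against 86.9, 69.4, 92.6, 124 and 63.0 CPM in fetal liver. At least 1 UMI of Id1 or Id3 was present in 13 bone marrow cells (3.07%) and 381 fetal liver cells (83.9%). Of the 31 genes of the Id, Smad, TGF-beta and BMP list, 3 fell (9.68%, compared with 2.06% of all tested genes) and 0 rose, and 2 fell without fetal liver plate 4. Cnn3, a calponin that binds actin, was 26.0-fold lower, with 0 to 9.59 CPM in bone marrow plates and 30.4 to 127 CPM in fetal liver plates.

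**Figure D3:**
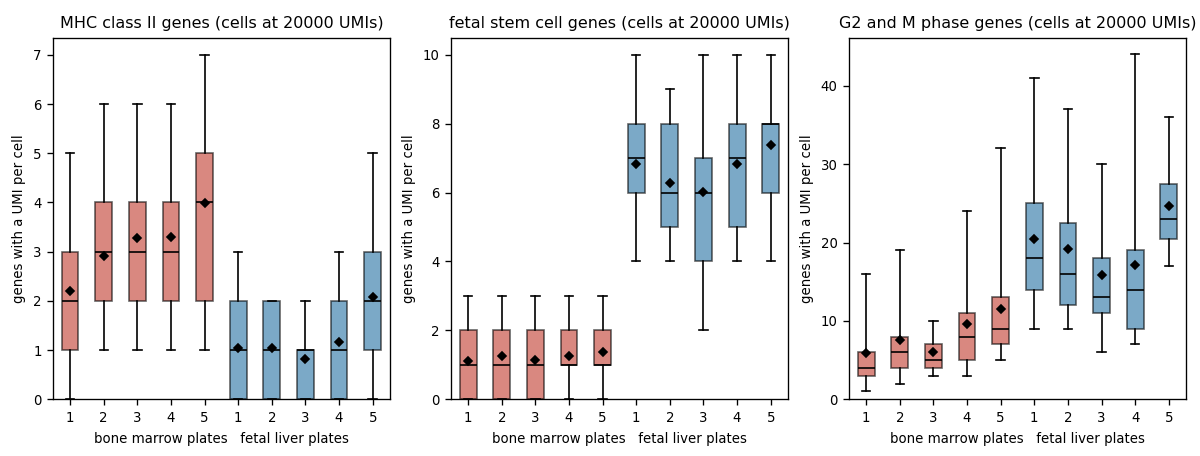
Genes with a UMI per cell after thinning to 20000 UMIs (y axis) in each plate (x axis), bone marrow in red and left of fetal liver in blue, for MHC class II, fetal stem cell and G2 and M phase genes. Boxes give the quartiles and median over cells, whiskers the 5th and 95th percentiles and diamonds the plate means, which for fetal stem cell genes lie between 1.12 and 1.38 in bone marrow plates and between 6.03 and 7.37 in fetal liver plates.

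After thinning to 20000 UMIs per cell, bone marrow cells had 1.23 ± 0.107 of the fetal stem cell genes and fetal liver cells 6.67 ± 0.528 (mean of plates ± SD, n = 5 plates each). This count also carries the smaller number of genes of any kind detected in a thinned bone marrow cell. The plates did not overlap (exact permutation test, two-sided p = 0.00794), and with the 2 codes of each tissue as the units the smallest possible p would be 0.333. Of 28 imprinted genes tested, H19 and Igf2 among them, 6 fell (21.4%, compared with 2.06% of all tested genes) and 0 rose. The median log2 fold change was -0.75, and 1 rose and 2 fell without fetal liver plate 4. Cdkn1c, an imprinted inhibitor of cyclin-dependent kinases, passed with all plates (adjusted p = 0.0112), with 25.1 to 30.5 CPM in bone marrow and 5.42 to 82.3 CPM in fetal liver, where plate 5 lay below all bone marrow plates. The call of Cdkn1c was kept in 16 of 27 alternatives. Without fetal liver plate 4 its log2 fold change was -0.16 (adjusted p = 0.970), with plate 5 alone in that code. With each plate as a library it was -0.82 (adjusted p = 0.355). Peg3, a paternally expressed zinc finger gene, fell 43.5-fold from low levels, with 5 UMIs in bone marrow and 207 in fetal liver. Dlk1, a membrane ligand of the Notch pathway that is also imprinted, did not pass with 2.74 CPM in bone marrow and 21.9 CPM in fetal liver (adjusted p = 0.0995).

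Other large falls lay outside these lists. Grap, an adaptor of the Grb2 family, had 2.48, 0, 0, 0 and 0 CPM in bone marrow plates, against 80.8, 74.6, 72.1, 111 and 102 CPM in fetal liver plates. A UMI of Grap was present in 1 bone marrow cell and in 297 fetal liver cells, so the whole bone marrow level came from that cell. Mzb1, an endoplasmic reticulum protein best known from B cells and plasma cells, had a log2 fold change of -5.91 ± 0.90, with 9.61 CPM in bone marrow plate 4 and at most 0.130 CPM in the other bone marrow plates. The adjusted p of Mzb1 was 2.80e-04 with all plates and 0.0588 without fetal liver plate 4. Gem, a small GTP-binding protein, had 4.76 to 6.89 CPM in bone marrow and 91.6 to 147 CPM in fetal liver. Ramp2, a partner of the adrenomedullin receptor, was 22.3-fold lower, with a UMI in 2.36% of bone marrow cells and 68.9% of fetal liver cells. Ddx4, an RNA helicase best known from germ cells, had 0.0991, 2.99, 0, 5.24 and 4.87 CPM in bone marrow plates, against 82.0, 43.2, 48.7, 56.8 and 70.8 CPM in fetal liver plates. Its log2 fold change was -4.52 ± 0.62 (adjusted p = 9.00e-05), without overlap. Igf1, a growth factor related to Igf2, was 15.9-fold lower, the noncoding RNA Scarletltr 23.7-fold lower, and Eif3j2 17.7-fold lower, though reads of Eif3j2 could be shared with its near copy Eif3j1.

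Antigen presentation stood out on the other side. Of 16 MHC class II genes tested, 7 rose (43.8%, compared with 2.68% of all tested genes), 0 fell and 9 did not pass, with a median log2 fold change of 2.92, and 6 rose without fetal liver plate 4. The start regions of the genes at issue are shown because class II and class I genes carry a conserved promoter element, the Y box, that contains an inverted CCAAT. The windows are 250 bases before to 50 after the annotated start, from RefSeq on GRCm38.p6, 5′ to 3′ on the strand of the gene, with each CCAAT or its complement ATTGG in capitals. H2-Aa lies at chr17:34287774-34288073 on the minus strand and H2-Eb1 at chr17:34305617-34305916 on the plus strand.
H2-Aa: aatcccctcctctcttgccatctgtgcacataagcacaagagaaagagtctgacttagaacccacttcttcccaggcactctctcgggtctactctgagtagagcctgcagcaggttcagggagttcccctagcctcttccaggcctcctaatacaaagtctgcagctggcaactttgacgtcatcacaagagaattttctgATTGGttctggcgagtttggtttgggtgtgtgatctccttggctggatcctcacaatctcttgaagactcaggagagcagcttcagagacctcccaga
H2-Eb1: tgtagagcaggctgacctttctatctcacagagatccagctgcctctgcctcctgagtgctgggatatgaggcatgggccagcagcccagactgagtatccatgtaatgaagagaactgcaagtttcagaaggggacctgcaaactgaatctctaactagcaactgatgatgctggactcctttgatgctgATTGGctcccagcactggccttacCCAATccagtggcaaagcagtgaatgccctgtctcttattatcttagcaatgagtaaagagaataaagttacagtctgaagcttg
H2-Aa had 1 match, 48 bases before the start, and H2-Eb1 had 2, at 59 and 35 bases before it. Of the 12 class II genes with a window, 9 held a match, compared with 38.6% of the windows of 11615 tested genes and 37.9% of all 27025 windows. A match describes letters and does not show that a factor binds.

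H2-Aa encodes the alpha chain of the class II molecule I-A. Its level was 80.7, 142, 126, 128 and 139 CPM in bone marrow plates, against 0, 0.200, 2.52, 0.501 and 0.603 CPM in fetal liver plates. All bone marrow plates were far above the fetal liver plates, and the log2 fold change was 7.49 ± 0.44 (adjusted p = 5.40e-10). H2-Ab1, its beta chain, had 74.5, 165, 146, 131 and 113 CPM in bone marrow plates, against 0, 2.6, 0, 1.5 and 2.41 CPM in fetal liver plates (adjusted p = 3.30e-09). H2-Eb1, the beta chain of I-E, had 84.5 to 130.0 CPM in bone marrow and 0 to 1.68 CPM in fetal liver (adjusted p = 2.39e-09). A UMI of any of these 3 genes was found in 343 of 423 bone marrow cells (81.1%, exact 95% binomial interval 77.0% to 84.7%) and in 30 of 454 fetal liver cells (6.61%, 4.5% to 9.30%). All 3 together were found in 88 bone marrow cells and in 0 fetal liver cells.

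The genes that load and handle class II molecules differed less and had a clear level in fetal liver. Cd74, the invariant chain that guides class II molecules through the cell, had 113, 94.2, 164, 218 and 187 CPM in bone marrow plates, against 16.7, 22.8, 34.5, 17.2 and 20.5 CPM in fetal liver plates. It did not overlap and was 7.66-fold higher (adjusted p = 2.61e-06). H2-DMa, a subunit of the peptide-loading protein H2-M, had 220.1 to 364 CPM in bone marrow and 26.9 to 39.0 CPM in fetal liver, a change of 8.31-fold (adjusted p = 5.17e-08). H2-DMb1, its partner, was 7.43-fold higher. Ctss, the protease that trims the invariant chain, was 11.2-fold higher with 32.3 to 113 CPM in bone marrow and 3.09 to 14.8 CPM in fetal liver, and its adjusted p was 0.121 without fetal liver plate 4. After thinning to 20000 UMIs a bone marrow cell had 3.13 ± 0.652 class II genes and a fetal liver cell 1.22 ± 0.495 (n = 5 plates each, exact permutation test, two-sided p = 0.00794). With codes as the units the smallest possible p would again be 0.333, and this list too was chosen with earlier results on these plates known.

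In the class I list 9 of 25 tested genes rose (36%, compared with 2.68% of all tested genes), 0 fell and 16 did not pass. The median log2 fold change was 0.79, and 4 rose without fetal liver plate 4 (H2-Q6, H2-Q7, H2-K1 and H2-D1). The largest rises were in H2-Q7 and H2-Q6, nonclassical class I genes of the Qa-2 family. Their windows are shown to display how alike these copies are, since reads between them can be assigned to the wrong gene. H2-Q7 lies at chr17:35438905-35439204 and H2-Q6 at chr17:35424600-35424899, both on the plus strand, with the same letters in capitals.
H2-Q7: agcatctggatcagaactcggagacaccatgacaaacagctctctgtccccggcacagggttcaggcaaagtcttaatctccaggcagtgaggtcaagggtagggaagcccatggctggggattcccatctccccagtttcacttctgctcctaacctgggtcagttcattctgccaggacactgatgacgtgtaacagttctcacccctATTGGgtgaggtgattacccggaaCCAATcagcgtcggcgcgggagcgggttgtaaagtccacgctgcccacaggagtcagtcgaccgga
H2-Q6: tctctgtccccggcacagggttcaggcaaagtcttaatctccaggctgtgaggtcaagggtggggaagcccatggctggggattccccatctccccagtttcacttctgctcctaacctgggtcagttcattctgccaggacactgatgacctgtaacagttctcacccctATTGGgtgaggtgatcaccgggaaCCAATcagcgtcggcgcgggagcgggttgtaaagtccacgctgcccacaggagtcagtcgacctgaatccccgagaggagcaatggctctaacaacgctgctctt
Where the windows aligned, 254 of 260 bases were identical (97.7%), so the values of H2-Q7 and H2-Q6 are best read together. H2-Q7 had 502, 602, 559.9, 493 and 317 CPM in bone marrow plates, against 13.2, 3.60, 12.6, 5.01 and 1.51 CPM in fetal liver plates. H2-Q6 had 160.3, 183, 148, 76.9 and 104 CPM in bone marrow plates, against 2.48, 1.20, 0, 0.626 and 0 CPM in fetal liver plates. Neither gene overlapped between tissues, with log2 fold changes of 6.04 ± 0.36 (adjusted p = 5.73e-10) for H2-Q7 and 7.08 ± 0.50 (adjusted p = 6.56e-09) for H2-Q6. A UMI of H2-Q7 was found in 93.1% of bone marrow cells and 7.05% of fetal liver cells.

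The classical class I genes were abundant in both tissues and differed by a smaller factor. H2-K1 had 1469.6, 1616, 1468, 1957 and 2037 CPM in bone marrow plates, against 758, 683, 614, 495 and 549.7 CPM in fetal liver plates, and was 2.92-fold higher (adjusted p = 1.53e-04). H2-D1 was 2.89-fold higher and did not overlap either. Every bone marrow cell and 99.3% of fetal liver cells had a UMI of H2-K1, so its difference was one of level. H2-T23, the nonclassical Qa-1, was 2.59-fold higher and Tap1, a subunit of the peptide transporter, 3.06-fold higher, with adjusted p-values of 0.303 for H2-T23 and 0.0928 for Tap1 without fetal liver plate 4. B2m, the light chain shared by class I molecules, did not pass (log2 fold change 0.79 ± 0.24, adjusted p = 0.0629), although its bone marrow plates, at 3182 to 5941 CPM, all lay above its fetal liver plates, at 2251 to 2930.2 CPM. Psme1, a regulator of the proteasome, had 724 CPM in bone marrow and 668 CPM in fetal liver and did not pass.

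Interferon response genes are induced by the antiviral interferons. Of 65 tested, 14 rose (21.5%, compared with 2.68% of all tested genes), 0 fell and 51 did not pass. The median log2 fold change was 0.84, and 54 of the 65 had a positive value. Without fetal liver plate 4, 0 passed. Ifi27 had 259, 318, 295, 229.7 and 228 CPM in bone marrow plates, against 91.6, 57.2, 123, 58.0 and 102 CPM in fetal liver plates, without overlap (log2 fold change 1.68 ± 0.23, adjusted p = 9.74e-05). Zbp1, a sensor of nucleic acids in the Z form, had a UMI in 58 bone marrow cells and 1 fetal liver cell. Tgtp1, a GTPase with a near copy, was 19.5-fold higher, and Trim30d, which also has close copies, 21.5-fold higher. Iigp1, an interferon-induced GTPase, was 6.25-fold higher. In the separate list of the Ifi200 family 1 of 8 genes rose, Mndal, by 1.74-fold, and its reads may be shared with the neighbouring Ifi203; without fetal liver plate 4, 0 passed. Ifitm3, a membrane protein that restricts viruses and is abundant in stem cells, did not pass, with 2004 CPM in bone marrow and 1519 CPM in fetal liver (adjusted p = 0.394). Of 21 Toll-like receptor and innate sensing genes 0 passed.

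Several cell cycle genes fell in bone marrow, and none of the G2, M or S phase genes rose. In the G2 and M phase list 16 of 56 genes fell (28.6%, compared with 2.06% of all tested genes), 0 rose and 40 did not pass. The median log2 fold change was -0.85, and 1 fell without fetal liver plate 4. Of 48 S phase genes 4 fell (8.33%) and 0 rose, with a median of -0.51, and 0 fell without that plate. Promoters of G2 and M genes are known to combine CCAAT boxes with a cell cycle homology region, and 3 of them are shown for that reason. Capitals mark CCAAT or ATTGG and the letters TTTGAA, with their complement TTCAAA, as well as the palindrome TTTAAA, searched on both strands. Ccnb1 lies at chr13:100786437-100786736, Cdk1 at chr10:69352863-69353162 and Cdc20 at chr4:118437294-118437593, all on the minus strand.
Ccnb1: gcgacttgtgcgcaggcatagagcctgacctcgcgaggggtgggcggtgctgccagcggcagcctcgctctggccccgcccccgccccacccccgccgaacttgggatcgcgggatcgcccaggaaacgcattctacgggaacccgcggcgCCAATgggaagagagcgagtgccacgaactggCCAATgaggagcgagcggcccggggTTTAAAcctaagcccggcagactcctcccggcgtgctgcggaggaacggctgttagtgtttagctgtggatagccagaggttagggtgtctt
Cdk1: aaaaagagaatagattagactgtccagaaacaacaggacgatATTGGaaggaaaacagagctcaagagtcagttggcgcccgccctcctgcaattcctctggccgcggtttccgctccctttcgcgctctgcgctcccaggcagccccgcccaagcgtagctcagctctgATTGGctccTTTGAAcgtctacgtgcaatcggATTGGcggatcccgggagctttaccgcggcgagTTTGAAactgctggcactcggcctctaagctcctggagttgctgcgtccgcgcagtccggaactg
Cdc20: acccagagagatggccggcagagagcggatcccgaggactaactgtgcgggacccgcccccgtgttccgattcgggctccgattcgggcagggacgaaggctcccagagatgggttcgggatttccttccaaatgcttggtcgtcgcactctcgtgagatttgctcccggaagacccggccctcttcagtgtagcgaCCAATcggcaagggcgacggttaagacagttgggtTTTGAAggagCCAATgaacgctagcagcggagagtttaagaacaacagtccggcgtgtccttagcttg
Of 48 G2 and M genes with a window, 33 (68.8%) held both kinds of letters, compared with 7.90% of the windows of tested genes and 10.9% of all windows. Both were found in 12 of the 14 windows of genes that fell and in 21 of the 34 windows of genes that did not pass.

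Ccnb1, the cyclin that drives entry into mitosis, had 18.2, 2.34, 0, 28.0 and 25.3 CPM in bone marrow plates, against 111, 110.0, 63.9, 112 and 72.9 CPM in fetal liver plates. The plates did not overlap, and Ccnb1 fell by 2.58 on the log2 scale (adjusted p = 2.24e-04, 0.0548 without fetal liver plate 4). A UMI of Ccnb1 was found in 11.8% of bone marrow cells and 64.1% of fetal liver cells. Ube2c, an enzyme of the anaphase-promoting complex pathway, had 19.1, 53.5, 0, 63.8 and 141 CPM in bone marrow plates, against 278, 238, 164, 228 and 252 CPM in fetal liver plates. Bone marrow plate 5 was the highest of its tissue for Ube2c, and also for Cenpa, Cdc20, Cdk1 and Cks1b. Cenpa, the histone of the centromere, was 3.15-fold lower (adjusted p = 6.10e-04) and kept its call without fetal liver plate 4. Cdc20, an activator of the anaphase-promoting complex, was 2.68-fold lower, with 66.9 CPM in bone marrow plate 5 and 64.1 CPM in fetal liver plate 3, so its plates overlapped. Cdk1, the kinase of Ccnb1, had 37.3 to 157 CPM in bone marrow and 217 to 279.7 CPM in fetal liver (adjusted p = 0.00833, 0.148 without fetal liver plate 4).

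After the same thinning a bone marrow cell had 8.11 ± 2.43 of the G2 and M genes and a fetal liver cell 19.4 ± 3.44, and for S phase genes the values were 10.5 ± 1.39 in bone marrow and 20.9 ± 3.09 in fetal liver (mean of plates ± SD, n = 5 plates each). Since fewer genes of any kind were detected in a thinned bone marrow cell, these counts carry that difference too. Among S phase genes, Tyms, which makes thymidylate, Gmnn, which blocks renewed licensing of origins, Nasp, a histone chaperone, and Exo1, an exonuclease of DNA repair, fell 1.87-fold to 3.08-fold. Hmgb2, an abundant chromatin protein, did not pass with 778 CPM in bone marrow and 1266 CPM in fetal liver (adjusted p = 0.0752). Of 24 G1 cyclins, kinases and inhibitors 3 rose (12.5%) and 2 fell (8.33%), beside 2.68% and 2.06% of all tested genes, and 0 passed without fetal liver plate 4. Ccnd1, a cyclin of G1, had 28.5 to 73.2 CPM in bone marrow and 115 to 189 CPM in fetal liver and fell 3.31-fold (adjusted p = 1.75e-04). Cdkn2c, an inhibitor of Cdk4 and Cdk6, had 14.9, 29.3, 35.4, 11.8 and 27.6 CPM in bone marrow plates, against 0, 0.600, 0.210, 1.63 and 0.904 CPM in fetal liver plates (adjusted p = 0.00306). Cdk6, a G1 kinase, rose 3.12-fold, and Btg1, an antiproliferative gene, rose 3.0-fold. Cdk4 did not pass, with 502 CPM in bone marrow and 738 CPM in fetal liver.

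Of 33 transcription factors and other regulators of stem cells, 9 rose (27.3%, compared with 2.68% of all tested genes), 0 fell and 24 did not pass. The median log2 fold change was 0.60, and 1, Gfi1b, rose without fetal liver plate 4. Gfi1b, a repressor that restrains stem cell division, had 79.6, 26.4, 68.8, 119 and 82.5 CPM in bone marrow plates, against 19.5, 14.6, 4.20, 19.8 and 9.64 CPM in fetal liver plates (log2 fold change 2.38 ± 0.36, adjusted p = 3.06e-04). Its plates did not overlap, and 46.1% of bone marrow cells and 23.6% of fetal liver cells had a UMI of it. Lmo2, a bridging protein of the stem cell transcription complex, had 694 to 897 CPM in bone marrow and 85.3 to 547 CPM in fetal liver, where plate 5 was lowest (adjusted p = 0.00738). Sox4, Msi2, Gata2 and Tcf15 were 1.88-fold to 5.22-fold higher. Mllt3 and Hhex, which are known to support stem cell function, did not pass, with 155 CPM for Mllt3 and 176 CPM for Hhex in bone marrow, against 250.2 CPM for Mllt3 and 261 CPM for Hhex in fetal liver. Of 22 Hox genes tested, 0 passed.

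The Myc genes moved in opposite directions. Myc had 176, 198, 225, 196 and 150.4 CPM in bone marrow plates, against 72.2, 63.0, 77.1, 75.3 and 81.1 CPM in fetal liver plates. It did not overlap and rose by 1.31 ± 0.23 on the log2 scale (adjusted p = 0.00136, 0.216 without fetal liver plate 4). Mycn had 114, 82.8, 85.4, 152 and 164 CPM in bone marrow plates, against 289.9, 378, 265, 349.8 and 123 CPM in fetal liver plates. Fetal liver plate 5 lay inside the bone marrow range for Mycn, and the other fetal liver plates lay above it (log2 fold change -1.22 ± 0.24, adjusted p = 0.00344, 0.546 without fetal liver plate 4).

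**Figure D4:**
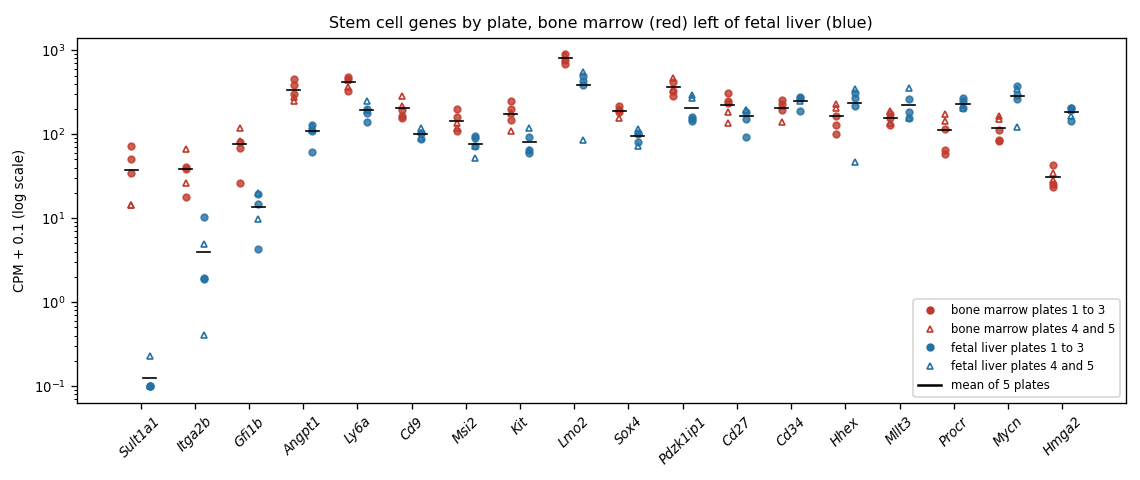
Level of stem cell surface genes, regulators and Hmga2 in each plate (CPM + 0.1, log scale), bone marrow in red and left of fetal liver in blue, with circles for plates 1 to 3, triangles for plates 4 and 5 and a line at the mean of 5 plates. The plates of Ly6a, Angpt1, Itga2b and Gfi1b are higher in bone marrow without overlap, those of Procr and Hmga2 are lower without overlap, and fetal liver plate 5 is the low triangle of Lmo2, Hhex and Mycn.

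Among 33 surface and marker genes of stem cells, 7 rose (21.2%), 2 fell (6.06%) and 24 did not pass, beside 2.68% higher and 2.06% lower of all tested genes. The median log2 fold change was -0.04, and 1, Sult1a1, rose and 0 fell without fetal liver plate 4. Ly6a, which encodes Sca-1, had 476, 458, 327, 367 and 436 CPM in bone marrow plates, against 141, 177, 199.8, 193 and 247 CPM in fetal liver plates (adjusted p = 0.00184, 0.359 without fetal liver plate 4). Angpt1, a ligand of the Tie2 receptor, was 2.91-fold higher, with 248 to 454 CPM in bone marrow and 61.8 to 129 CPM in fetal liver. Itga2b, the CD41 integrin, had a UMI in 27.4% of bone marrow cells and 7.05% of fetal liver cells and was 9.39-fold higher. Sult1a1, a sulfotransferase, had 14.3 to 72.3 CPM in bone marrow plates and 1 UMI in all fetal liver cells, a bone marrow to fetal liver ratio of 1267 with an exact 95% counting interval of 227 to 50073. Kit, the receptor of stem cell factor, and Cd9, a tetraspanin, were 1.95-fold and 2.03-fold higher. Procr, the endothelial protein C receptor, had 65.0, 116, 57.8, 143 and 176 CPM in bone marrow plates, against 204, 272, 245, 225 and 207 CPM in fetal liver plates (adjusted p = 0.0458). Procr kept its call in 8 of 27 alternatives. Vwf, von Willebrand factor, was 2.74-fold lower at low levels (adjusted p = 0.0483) and kept its call in 10 of 27 alternatives. Cd34 did not pass, with 201 CPM in bone marrow and 257 CPM in fetal liver.

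Most genes of energy metabolism did not pass. Of 82 nuclear genes of the respiratory chain 3 fell (3.66%, compared with 2.06% of all tested genes) and 0 rose. The plates of 27 of the 82 lay wholly lower in bone marrow, compared with 652 of all 15472 tested genes. A negative log2 fold change was found for 75 of the 82, compared with 7575 of all tested genes. The median log2 fold change of the list was -0.29. In the test on the number of cells with at least 1 UMI, scaled to the detections of all genes, 50 respiratory chain genes were higher and 1 lower. The unscaled share of cells was not higher in bone marrow for the most abundant members that did not pass. It was 99.5% in bone marrow and 100% in fetal liver for Atp5e, 98.8% and 99.8% for Cox8a, and 100% in both for Cox4i1. Cox6b2, a testis-type subunit of cytochrome c oxidase, was 2.14-fold lower (adjusted p = 0.00306), and Sdhb, of complex II, 1.65-fold lower (adjusted p = 0.0494), a call kept in 8 of 27 alternatives. Of 30 glycolysis genes 3 fell (10%, compared with 2.06% of all tested genes) and 0 rose. The plates of 10 of the 30 lay wholly lower in bone marrow and those of 0 wholly higher. In the scaled number of cells 6 were higher and 1 lower. Eno1, an enolase, had 242, 184, 264, 168 and 256 CPM in bone marrow plates, against 479, 414, 462, 524 and 577 CPM in fetal liver plates, without overlap (adjusted p = 0.00142). Slc2a1, the glucose transporter Glut1, was 2.75-fold lower and Pfkl, a phosphofructokinase, 2.01-fold lower. Ldha and Gapdh did not pass, with 652 CPM for Ldha and 1256 CPM for Gapdh in bone marrow, against 941 CPM for Ldha and 1741 CPM for Gapdh in fetal liver. Without fetal liver plate 4, 0 genes of either list passed. Of 84 cytosolic ribosomal protein genes 0 passed, with a median of 0.27, which was -0.12 without bone marrow plates 4 and 5. The genes summed to 204692 to 230884 CPM in bone marrow plates 1 to 3, and to 382403 and 328267 CPM in plates 4 and 5. Fetal liver plates had 212556 to 282868 CPM. In the scaled number of cells 80 ribosomal protein genes were higher, with a median log2 fold change of 0.69. That is close to the 0.66 of Abcg2 on the same scale, a gene found in equal shares of cells. Of 12 genes of the mitochondrial genome 0 passed. For ribosome biogenesis 2 of 36 rose (5.56%) and 1 fell (2.78%), beside 2.68% and 2.06% of all tested genes, and 0 passed without fetal liver plate 4. In the cholesterol synthesis and apoptosis lists, of 28 genes each, 0 passed.

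In the FoxO and antioxidant list of 32 genes 4 rose (12.5%) and 2 fell (6.25%), beside 2.68% and 2.06% of all tested genes. Without fetal liver plate 4, 1 rose and 0 fell. Txnip, an inhibitor of thioredoxin and of glucose uptake, had 397, 324, 412, 594 and 532 CPM in bone marrow plates, against 193, 199, 168, 224 and 154 CPM in fetal liver plates (adjusted p = 0.00127, 0.0878 without fetal liver plate 4). Aldh1a1, an aldehyde dehydrogenase that makes retinoic acid, had 871 UMIs in 73 bone marrow cells and 0 in fetal liver cells, so it was at least 262-fold higher against a floor of 3 UMIs over all fetal liver cells. Gclm, a subunit of the enzyme that begins glutathione synthesis, was 3.13-fold higher, and Gpx7, a peroxidase, 6.32-fold higher. Sesn1, a stress-induced inhibitor of mTORC1, was 2.66-fold lower, with 60.4 to 97.8 CPM in bone marrow and 104 to 249 CPM in fetal liver. Prdx4, a peroxiredoxin, was 1.97-fold lower, while Prdx1 did not pass (645 CPM in bone marrow and 938 CPM in fetal liver).

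Drug and lipid transporters of the ABC family rose in 3 of 35 cases (8.57%, compared with 2.68% of all tested genes) and fell in 0. Abcg2, the pump behind the side population phenotype of stem cells, had 69.7, 79.9, 75.3, 145 and 90.9 CPM in bone marrow plates, against 30.0, 42.2, 53.4, 52.9 and 23.5 CPM in fetal liver plates. It did not overlap and was 2.21-fold higher (adjusted p = 0.0204), and a UMI was found in 40.7% of cells of each tissue. Abcb1b and Abcb4, other efflux pumps, were 15.8-fold and 8.71-fold higher. Among glutathione transferases 3 of 20 rose (15%) and 1 fell (5%), for example Gstt1, 9.07-fold higher, and Mgst3, 2.23-fold lower. Without fetal liver plate 4, 0 genes of either list passed. In the lysosome and autophagy list 2 of 37 rose (5.41%) and 1 fell (2.70%), beside 2.68% and 2.06% of all tested genes, and 0 passed without that plate.

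Over all tested genes 2.68% rose and 2.06% fell, and without fetal liver plate 4 none of the immediate early, JAK-STAT, Notch or homing genes passed. Of 38 immediate early and stress-response genes 4 rose (10.5%) and 0 fell, among them Nfkbia, the inhibitor of NF-kB, 1.99-fold higher, and Tsc22d3, a gene induced by glucocorticoids, 2.21-fold higher. Of 42 JAK-STAT genes 2 rose (4.76%) and 0 fell. Pim1, a kinase induced by STAT5, had 745, 591, 671, 395 and 288 CPM in bone marrow plates, against 130.4, 84.4, 105, 145 and 165 CPM in fetal liver plates (log2 fold change 1.96 ± 0.28, adjusted p = 1.15e-04, 0.0681 without fetal liver plate 4). Jak1 did not pass, with 184 CPM in bone marrow and 105 CPM in fetal liver. Notch and arterial genes rose in 2 and fell in 3 of 22 cases, homing and adhesion genes rose in 3 and fell in 0 of 34. Of these, Alcam, an adhesion molecule, was 26.9-fold higher, with 0.991 CPM in bone marrow plate 1 and 19.9 to 49.7 CPM in the other bone marrow plates. Itga6, an integrin, was 4.60-fold higher. In the TNF list 2 of 32 rose and 2 fell, with 1 rising and 0 falling without fetal liver plate 4, including Tnfsf13, 20.1 to 44.5 CPM in bone marrow and a UMI in 1 fetal liver cell, whose reads may be shared with an overlapping antisense gene. Tnfrsf4 had 0 UMIs in bone marrow and was at least 57.0-fold lower (adjusted p = 0.0444), and kept its call in 8 of 24 alternatives. Its adjusted p was 0.663 without fetal liver plates 4 and 5.

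Of 20 genes of DNA methylation 1 rose (5%) and 2 fell (10%), beside 2.68% and 2.06% of all tested genes, and 0 passed without fetal liver plate 4. Dnmt3b, a de novo methyltransferase, had 48.5, 36.9, 28.1, 32.8 and 37.0 CPM in bone marrow plates, against 154, 221, 158, 151 and 43.7 CPM in fetal liver plates. Fetal liver plate 5 lay inside the bone marrow range and the other fetal liver plates above it (adjusted p = 3.07e-05, 0.235 without fetal liver plate 4). Dnmt3a, the other de novo methyltransferase, had 22.8 to 58.6 CPM in bone marrow and 84.0 to 110.3 CPM in fetal liver and did not overlap (adjusted p = 0.00426). Of 34 Polycomb genes 1 rose (2.94%, near the 2.68% of all tested genes), and 0 rose without fetal liver plate 4. The gene was Pcgf5, with 107 CPM in bone marrow and 45.4 CPM in fetal liver, where plate 5 had 8.44 CPM.

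**Figure D5:**
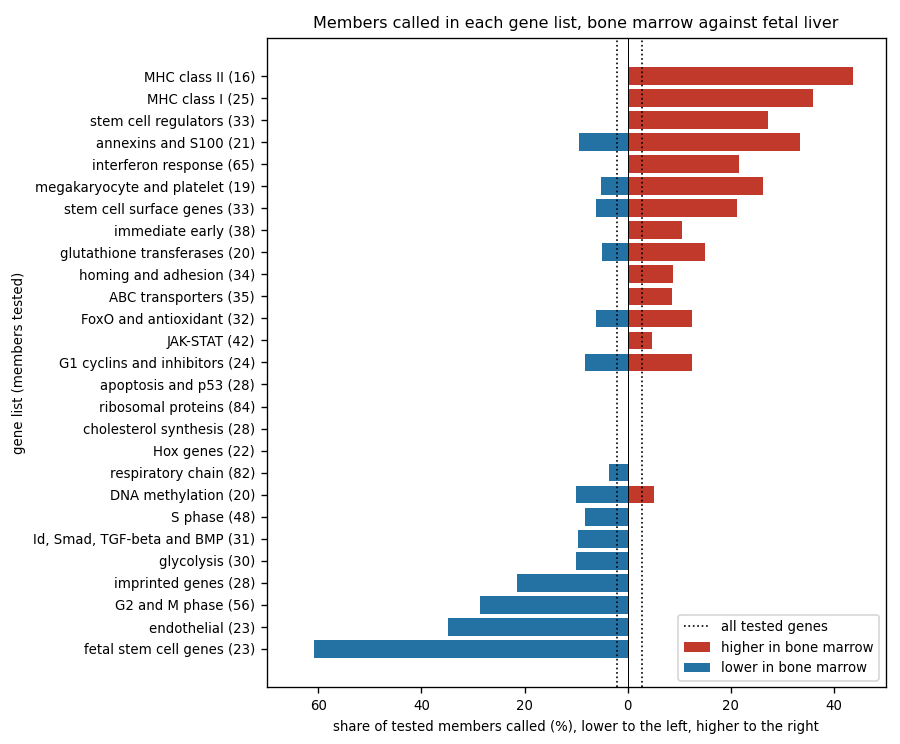
Share of the tested members of each gene list that were called (x axis, %), higher in bone marrow to the right in red and lower to the left in blue, with the number of tested members in brackets. Dotted lines mark the shares over all tested genes, 2.68% higher and 2.06% lower, and the longest bars are MHC class II on the right and the fetal stem cell genes on the left.

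Lists of other blood and non-blood cell types were counted in the same way, beside 2.68% of all tested genes higher and 2.06% lower in bone marrow. Of 23 endothelial genes 8 fell and 0 rose, and 5 fell without fetal liver plate 4. Plvap, Cdh5 and Mmrn2, which mark endothelium, had 0 UMIs in bone marrow, and the summed level of the 7 defining endothelial markers was 0 to 11.4 CPM in bone marrow plates and 6.88 to 24 CPM in fetal liver plates. Plvap was found in 36 fetal liver cells and was at least 74.7-fold lower in bone marrow. Its fitted log2 fold change was -10.02 with all cells and -8.90 (adjusted p = 0.0767) without the 38 bone marrow and 71 fetal liver cells that held UMIs of at least 5 markers of other cell types. In that fit Cdh5 had -7.29 (adjusted p = 0.337), compared with -8.17 with all cells, and Cldn5 -7.26 (adjusted p = 0.0692), compared with -7.29. Plvap, Cdh5 and Cldn5 are themselves among those markers, while Sox18 and Ecscr are not. Cells holding the former were therefore more likely to be left out of this fit. Sox18 and Ecscr, which are also endothelial, were spread over more cells, with a UMI of Ecscr in 24.8% of bone marrow cells and 81.9% of fetal liver cells, and Ecscr kept its call there (3.45-fold lower, adjusted p = 3.53e-05 with all cells). Emcn, a surface sialomucin, did not pass, with 83.1 CPM in bone marrow and 122 CPM in fetal liver.

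Megakaryocyte genes rose in 5 and fell in 1 of 19 cases, and 2 rose without fetal liver plate 4. Cavin2, a caveolar protein of platelets, had 21.4, 11.8, 24.9, 16.2 and 5.2 CPM in bone marrow plates and 0 UMIs in fetal liver, at least 163-fold higher. Pf4, platelet factor 4, was 2.93-fold higher and Plek, pleckstrin, 7.21-fold higher, while the summed platelet markers were 71.9 to 130.6 CPM in bone marrow plates and 89.4 to 157.7 CPM in fetal liver plates. Granulocyte and monocyte genes rose in 3 of 23 cases, and in 0 without fetal liver plate 4. Prtn3, proteinase 3, was found in 96.7% of bone marrow cells and 97.1% of fetal liver cells and was 1.83-fold higher. S100a8 and S100a9, which form calprotectin, had 0 to 87.3 CPM for S100a8 and 0 to 52.2 CPM for S100a9 in bone marrow plates, against at most 4.22 CPM for S100a8 and 0.301 CPM for S100a9 in fetal liver plates. The S100a9 level came from bone marrow plates 1 and 2, and Ltf, Elane and Ctsg, defining markers of granulocytes, had 0 UMIs in bone marrow. The other 6 of the 9 granulocyte and monocyte markers had UMIs there, and the 9 summed to 693 to 1037 CPM in bone marrow plates and 425 to 505 CPM in fetal liver plates.

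Lymphoid genes rose in 2 and fell in 3 of 22 cases, and 1 rose and 1 fell without fetal liver plate 4. Nkg7, a granule protein of cytotoxic lymphocytes, had 46.4, 107, 25.9, 92.6 and 86.4 CPM in bone marrow plates, against 2.48, 2.20, 13, 9.65 and 6.93 CPM in fetal liver plates (log2 fold change 3.37 ± 0.41, adjusted p = 2.01e-05). Gata3, a T cell factor that stem cells also express, was 3.27-fold higher. Bank1, a B cell scaffold protein, had 5.25, 0.130, 0, 0 and 13.6 CPM in bone marrow plates, against 56.2, 46.4, 52.9, 58.8 and 45.5 CPM in fetal liver plates, and fell without overlap (adjusted p = 5.63e-04). Cd79b, a subunit of the B cell receptor, was 1.95-fold lower. Cd79a and Cd3d had 0 UMIs in bone marrow, and the summed lymphoid markers, Nkg7 among them, were 26.4 to 121 CPM in bone marrow plates and 8.81 to 22.2 CPM in fetal liver plates. Mast cell and basophil genes rose in 3 of 8 cases, and 0 passed without fetal liver plate 4. In the annexin and S100 list 7 of 21 rose and 2 fell, including Anxa1 2.96-fold, S100a1 2.42-fold and S100a6 2.09-fold higher, and S100a16, with 2 UMIs in bone marrow and 698 in fetal liver, a fetal liver to bone marrow ratio of 387 (exact 95% counting interval 107 to 3205). Without fetal liver plate 4, 0 of the list rose and 1 fell, with adjusted p-values of 0.126 for Anxa1, 0.228 for S100a1 and 0.594 for S100a6. Of 14 hepatocyte genes 1 rose, the keratin Krt18, 3.56-fold higher with 164 to 261 CPM in bone marrow plates and 46.7 to 83.4 CPM in fetal liver plates, and 1 passed without fetal liver plate 4. Of 21 erythroid genes 1 rose, Blvrb, a biliverdin reductase, 2.13-fold. Of 9 Gimap genes 1 fell, and without fetal liver plate 4, 0 erythroid or Gimap genes passed. In the macrophage list of 11 and the stromal list of 10 genes 0 passed.

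Within a tissue few genes differed by more than 4-fold between the codes. Between bone marrow plates 4 and 5 and plates 1 to 3, 20 of 3653 genes with at least 50 CPM in the higher code differed by more than 4-fold, and between the fetal liver codes 10 of 3420. In bone marrow, Mtmr9, a myotubularin-related gene, had 8.94 CPM in plates 4 and 5 and 122 CPM in plates 1 to 3, and Kdm1a, a histone demethylase, 7.26 CPM in plates 4 and 5 and 56.0 CPM in plates 1 to 3. Ctse, cathepsin E, had 64.8 CPM in plates 4 and 5 and 6.35 CPM in plates 1 to 3. In fetal liver the widest gap was in Hbb-bt, an adult beta globin gene with a near copy, with 3.01 and 35.3 CPM in plates 4 and 5, against 1898, 2161 and 1864 CPM in plates 1 to 3. Hbb-bt did not pass between tissues. The mitochondrial genes mt-Nd1 to mt-Nd4 were also lower in fetal liver plates 4 and 5, for example mt-Nd4 with 55.9 CPM in plates 4 and 5 and 457 CPM in plates 1 to 3. Over 3744 genes with at least 50 CPM, the median absolute log2 difference was 0.37 between tissues, 0.28 between the bone marrow codes and 0.18 between the fetal liver codes.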

How the data were processed

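The authors deposited 1 table of raw UMI counts per gene and well for each plate, without normalization. The mm10 genome and the tools SAMtools, UMI-tools and featureCounts are named, per the submitters' processing notes. Not given in the sources used here are their versions, the annotation and the strand setting, so genes that overlap or are near copies may share reads.

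Wells were kept as cells from 1000 genes and 3000 UMIs upwards, with mitochondrial UMIs under 20%, which left out 57 bone marrow and 26 fetal liver wells of 960. No doublet caller was run on the sorted wells, and cells were not clustered. Counts were summed per origin code and tested by edgeR's quasi-likelihood method (edgeR 4.0.16 in R 4.3.3) after TMM scaling and the filterByExpr filter. The model held 5 libraries, including the 1 library from the aorta-gonad-mesonephros region of the series, and 2 residual degrees of freedom. The variance of each gene was moderated over all genes with a mean of 18.0 prior degrees of freedom. Adjusted p-values are Benjamini-Hochberg over 15472 genes. CPM are relative to TMM-scaled library sizes, and a tissue mean is the mean of its 2 codes. The ± of a log2 fold change is an approximate standard error, the absolute change over the root of F. Folds against 0 UMIs are bounds against 3 UMIs over the tissue. The edgeR steps were tested on simulated counts with less spread than the real libraries, so error rates in these data were not tested.

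Members and gene lists were chosen with earlier results of these data known. Named genes were the 15 with the largest rise and the 15 with the largest fall, if called, at 50 CPM or more in either tissue and not overlapping between plates, without predicted, Xist and Y-linked genes, and from each list up to 6 called members per direction with the smallest adjusted p and up to 3 abundant members that did not pass. Igf2bp2 and Hmga1 were added after their values were seen, and a few genes that met the rule are not reported here. For differences within a tissue the 5 widest in each direction qualified. Alternatives covered normalization, filters, tools (DESeq2 1.42.0, limma 3.58.1), library definition, thinning and left-out plates, codes and cells. Cells thinned to 20000 UMIs numbered 392 from bone marrow and 419 from fetal liver, with 31 and 35 left out as too shallow.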

Additional observations from a re-analysis of the deposited data

Results flagged for a closer look

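Of 232 sets of 5 plates, 16 had 1 plate set apart from the other 4 by more than 0.71 of the whole range; chance sets apart about 1 in 20. In bone marrow plate 1, H2-Aa was low at 80.7 CPM (others 126 to 142), Ndrg1 was high at 109 CPM (others 41.9 to 56.6) and S100a9 was high at 52.2 CPM (others 0 to 8.84). In bone marrow plate 3, Gem was high at 6.89 CPM (others 4.76 to 5.24) and Itga6 was high at 115 CPM (others 24.9 to 48.4). In bone marrow plate 4, Aldh1a1 was low at 5.24 CPM (others 27.8 to 33.0), Psme1 was low at 595 CPM (others 735 to 774) and Abcg2 was high at 145 CPM (others 69.7 to 90.9).

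Bone marrow plate 5 was high for Cenpa at 129.6 CPM (others 41.1 to 65.1), Cks1b at 296 CPM (others 149 to 172) and Emcn at 135 CPM (others 58.6 to 64.0). Fetal liver plate 3 was low for Angpt1 at 61.8 CPM (others 109.8 to 129). Fetal liver plate 5 was high for Ctss at 14.8 CPM (others 3.09 to 6.39) and Cdk1 at 279.7 CPM (others 217 to 233), and low for Pcgf5 at 8.44 CPM (others 46.1 to 56.8) and Jak1 at 33.8 CPM (others 105 to 124).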

How the results depend on the processing

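The 126 called genes named gave 3388 values under alternatives, of which 2929 kept direction and call, 454 lost the call and 5 changed sign; 41 genes kept the call throughout, and 61 lost it at most without fetal liver plate 4. The counts were 414 higher and 318 lower in bone marrow. They came to 220 and 185 with at least 5 CPM, 197 and 134 with the bone marrow and fetal liver libraries alone, 880 and 1153 in limma-voom over plates with the code as random block, 216 and 173 with thinned cells, and 246 and 176 without cells holding other cell type markers. The number of cells with at least 1 UMI, scaled to the detections of all genes, gave 801 higher and 292 lower. With 1 code left out, the lone library being assumed to vary like the others, they were 795 and 923 without bone marrow plates 1 to 3, 945 and 1013 without bone marrow plates 4 and 5, 215 and 158 without fetal liver plates 1 to 3, and 195 and 170 without fetal liver plates 4 and 5. Leaving out 1 plate gave 56 to 421 higher and 61 to 320 lower; the causes were not tested. Of weaker calls, Btg1, Exo1, Gata2, Pcgf5 and S100a9 were kept in 10 or 11 alternatives.

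With plates as libraries and the plate number of the title as replicate block, 394 genes were higher and 354 lower. Without the block the counts were 448 and 382. For plates 4 and 5 of either tissue the title number differs from the one used here. Bone marrow plate 4, for example, shared its title number with fetal liver plates 2 and 5. Same-numbered plates deviated from their tissue means with correlations of -0.02 to 0.14, and plates with different numbers with -0.14 to 0.07. Whether same-numbered plates share more than a number was not tested. In the number of cells with at least 1 UMI the log2 fold change changed sign for Cks1b (0.22), Hmgb2 (0.59), Cdk4 (0.56), Cd34 (0.32), Hhex (0.22), Eno1 (0.30), Ldha (0.61), Gapdh (0.67), Sdhb (0.33), Prdx4 (0.076), Prdx1 (0.61) and Hbb-bt (0.38). It also did so for Hhex without fetal liver plate 4 (0.12; -0.75 to 0.12 with any 1 plate left out), S100a9 without bone marrow plates 1 to 3 (-2.55) and Hbb-bt without fetal liver plates 1 to 3 (3.95). Genes per cell were fewer in bone marrow plates at every thinning depth and without thinning. With 2 codes per tissue and 0 to 3 UMIs in the lower tissue for many large folds, sizes are loosely bounded.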
